A study of Mus musculus with 23 samples.

Results

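Cav1 and Cav2 encode caveolin-1 and caveolin-2, and they are 2 of the 24475 genes in a table of liver expression from male C57BL/6J mice. They were picked by symbol because both were higher with the glucagon receptor (GCGR) antibody on chow and on a high-fat diet (HFD), so those differences are described here without a test. The mice had eaten chow or HFD for 4 months and then received REGN1193, an antibody that blocks GCGR, or REGN496, each at 10 mg/kg for 3 weeks. REGN496 was taken as the isotype control by elimination. Of the 23 libraries, numbered as in their titles, 1 to 5 were chow controls (n = 5), 6 to 11 had REGN1193 on chow (n = 6), 12 to 17 were HFD controls (n = 6), and 18 to 23 had REGN1193 on HFD (n = 6). All groups received an antibody. Separate mice are not stated for the libraries of a group, and the p-values then describe only the spread among these samples, which may be technical.

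Caveolae are small flask-shaped pits of the plasma membrane, built from caveolins inserted in the inner leaflet and cavins that coat them from the cytosol. Caveolin-1 is needed to form caveolae outside muscle, and caveolin-2 forms hetero-oligomers with it and depends on it to reach the cell surface. In liver, caveolins are best known from endothelial and stellate cells, and hepatocytes hold lower amounts, where caveolin-1 has been tied to lipid droplets and lipid handling. Glucagon acts on hepatocytes through GCGR, which signals through cyclic AMP.

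The genes lie side by side on the plus strand of mouse chromosome 6 (GRCm38.p6). Cav2 spans chr6:17281185-17289130 and Cav1 chr6:17306335-17341328, with 17.2 kb from the end of the one to the start of the other. The 250 bases before each start site are shown because both genes of this tandem pair were higher with the antibody. They come from RefSeq, read 5′ to 3′ on the plus strand, from chr6:17280935-17281184 for Cav2 and chr6:17306085-17306334 for Cav1, and capitals mark the letters of a searched motif.
Cav2: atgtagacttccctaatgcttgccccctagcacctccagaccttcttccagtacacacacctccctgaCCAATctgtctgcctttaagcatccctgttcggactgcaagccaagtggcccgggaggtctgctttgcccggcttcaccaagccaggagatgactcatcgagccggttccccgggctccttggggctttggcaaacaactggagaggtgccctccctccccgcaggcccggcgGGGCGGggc
Cav1: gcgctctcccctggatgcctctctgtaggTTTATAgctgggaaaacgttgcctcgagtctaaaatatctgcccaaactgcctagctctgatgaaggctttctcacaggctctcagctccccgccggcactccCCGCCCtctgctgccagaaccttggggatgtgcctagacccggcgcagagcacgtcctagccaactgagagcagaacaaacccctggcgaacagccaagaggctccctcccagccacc
The capitals in Cav2 are CCAAT at position -182 and the GC box GGGCGG at -9, counted back from the start site. A second GGGCGG of Cav2 began at -4, shared 1 base with the first and ran across the start site. In Cav1 the capitals are TATAAA at -221 and GGGCGG at -118, both on the minus strand, and another minus-strand GGGCGG at -2 ran across the start site. On both strands of all 32851 RefSeq windows of 250 bases before to 50 after a start site, GGGCGG was found in 35.7%, CCAAT in 37.4% and TATAAA in 13.6%. The letters of the cyclic AMP response element TGACGTCA (1.79% of windows), its shorter form TGACG (20.8%), the forkhead core GTAAACA (3.65%) and the sterol element core TCACNCCAC (1.24%) were not found in the windows of either gene. A second annotated Cav1 start, with its 250 bases at chr6:17307390-17307639, held none of the motifs. The upstream stretches had a GC content of 62% for Cav2 and 59.6% for Cav1, against a median of 52.4% over all windows.

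Values are RPKM (reads per kilobase of gene and size of the library), so levels of both genes can be compared within a library. Read totals are not in the table, but the steps on which low values fall gave an estimated 14000000 to 18500000 reads per library. On that scale a Cav1 value rested on 25 to 701 reads and a Cav2 value on 21 to 112, and the 95% Poisson intervals derived from them cover counting error only. The libraries were liver by their genes, since 10 hepatocyte markers summed to between 50871 and 68501 RPKM. Libraries 19 and 20, both of GCGR antibody on HFD, had the lowest mean correlation with their own group over all tested genes (0.980 and 0.979), and the caveolin differences on HFD are given with and without them, as are list members whose call or size depended on them.

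On chow, both caveolin transcripts were higher with the GCGR antibody, and Cav1 by far the more. Cav1 was at 1.39, 1.67, 1.27, 2.23 and 2.12 RPKM in control libraries 1 to 5. With the GCGR antibody it was at 5.91, 6.996, 7.52, 12.2, 13.1 and 9.01 RPKM in libraries 6 to 11. Every treated library lay above every control library, and the lowest treated value was more than double the highest control value. The means were 1.74 ± 0.429 RPKM (SD, n = 5) and 9.12 ± 2.92 RPKM (SD, n = 6), a ratio of 5.25. Cav1 had a higher mean than 24.1% of the 11939 tested genes in the control group and than 64.0% with the GCGR antibody.

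Cav2, whose product partners caveolin-1, was at 1.08, 0.723, 1.11, 1.06 and 1.12 RPKM in control libraries 1 to 5. It was at 1.43, 1.44, 1.93, 2.31, 2.52 and 1.49 RPKM in libraries 6 to 11. The groups did not overlap for Cav2 either. Its means were 1.02 ± 0.166 RPKM (SD, n = 5) and 1.85 ± 0.477 RPKM (SD, n = 6), a ratio of 1.82. Fold changes were fitted to log2(RPKM + 1), a scale that shrinks the change of weakly expressed genes. The difference was 1.85 ± 0.41 (SE) for Cav1 and 0.49 ± 0.10 for Cav2 on that scale. Each SE of a fitted difference, here and below, rests on 1 spread estimate per gene over all 4 groups. For Cav1 the treated HFD libraries raise that estimate, so its SE on chow is wider than the chow groups alone would give. Over all tested genes the median difference on chow was 0.03, and 1.5% of genes were higher in every treated than in every control library, a share given as background only, since this contrast chose the genes.

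**Figure D1:**
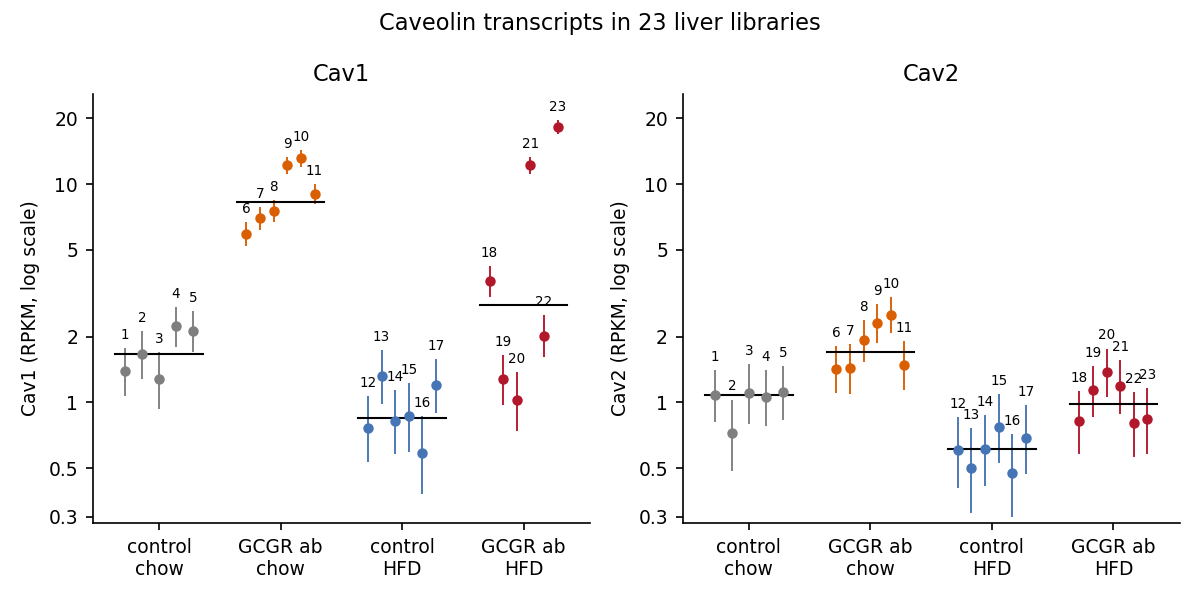
RPKM of Cav1 (left) and Cav2 (right) on a log axis in each of the 23 libraries, numbered and grouped by antibody and diet (ab, antibody); vertical lines are 95% Poisson intervals of the estimated reads and horizontal bars are group medians. On HFD with the GCGR antibody, Cav1 spread from 1.02 to 18.3 RPKM while Cav2 stayed between 0.807 and 1.38 RPKM.

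On HFD the antibody difference of Cav1 was uneven between libraries, and that of Cav2 was more even. Cav1 in the control libraries 12 to 17 was at 0.766, 1.32, 0.825, 0.869, 0.586 and 1.20 RPKM. In libraries 18 to 23 it was at 3.60, 1.28, 1.02, 12.2, 2.02 and 18.3 RPKM. Libraries 21 and 23 reached or passed the treated chow libraries, libraries 18 and 22 lay moderately above the controls, and libraries 19 and 20 lay within the control range. The 95% counting interval of library 20 ran from 0.739 to 1.38 RPKM and that of control library 13 from 0.986 to 1.74 RPKM, so these values did not differ beyond counting error. The group means were 0.928 ± 0.278 RPKM (SD, n = 6) and 6.39 ± 7.16 RPKM (SD, n = 6), with an SD larger than the treated mean. The ratio of the means was 6.89, whereas that of the medians was 3.32.

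Cav2 on HFD was at 0.604, 0.501, 0.615, 0.774, 0.474 and 0.686 RPKM in control libraries 12 to 17. It was at 0.821, 1.14, 1.38, 1.19, 0.807 and 0.837 RPKM in libraries 18 to 23. These groups did not overlap, although the gap between them was narrow, and the means were 0.609 ± 0.112 RPKM and 1.03 ± 0.24 RPKM (SD, n = 6 each). The ratio of the means was 1.69, beside 1.82 on chow. Library 20 held the highest Cav2 and the lowest Cav1 of its group. The difference on the log2 scale was 1.40 ± 0.40 (SE) for Cav1 and 0.33 ± 0.10 for Cav2, beside a median of 0.05 over all tested genes. For Cav1 the pooled SE understates the spread of the HFD groups, whose SD on that scale was 1.36 in treated and 0.21 in control libraries. In this contrast 2.0% of genes were higher without overlap, which is again background only. Without libraries 19 and 20 the values were 2.01 for Cav1 and 0.25 for Cav2.

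The spread of Cav1 in the HFD group with GCGR antibody stood apart from that of its other groups. On log2(RPKM + 1) its SD among those 6 libraries was 1.36, against 0.23 in chow controls, 0.41 in treated chow libraries and 0.21 in HFD controls. The corresponding SD of Cav2 was 0.17 in the same 6 libraries and between 0.10 and 0.24 in the other groups. The median gene had an SD of 0.16 in that group. The antibody difference on HFD minus that on chow was -0.45 ± 0.57 (SE) for Cav1 and -0.16 ± 0.14 for Cav2. With 1 library left out it ran from -0.84 (without library 23) to -0.19 (without library 20) for Cav1 and from -0.21 (without library 20) to -0.10 (without library 10) for Cav2. For Cav1 it also moved by more than 1.5 times without library 19 (-0.23) or 21 (-0.73), and for Cav2 without library 2 (-0.10). For Cav1 the sign turned to 0.16 without libraries 19 and 20, and no test of it is given, since it is built from the contrasts that chose the genes.

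Ordered by median, Cav1 was lowest in HFD controls (0.847 RPKM), then in chow controls (1.67 RPKM), then with GCGR antibody on HFD (2.81 RPKM) and highest with it on chow (8.27 RPKM). Each pair of neighbours in this order overlapped. The order for Cav2 differed, with medians of 0.609 RPKM in HFD controls, 0.987 RPKM with GCGR antibody on HFD, 1.08 RPKM in chow controls and 1.71 RPKM with GCGR antibody on chow. For Cav2 the HFD libraries with GCGR antibody (0.807 to 1.38 RPKM) overlapped the chow controls (0.723 to 1.12 RPKM) and lay below all chow libraries with that antibody.

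The diet contrasts, which took no part in choosing the genes, were tested. Cav2 fell on HFD under either antibody. With control antibody its log2 difference, HFD minus chow, was -0.32 ± 0.10 (SE; adjusted p = 0.0180, limma with Benjamini-Hochberg adjustment over 11939 genes), where 18.3% of all tested genes were called lower. The ranges of the 2 groups met only through chow library 2, whose 0.723 RPKM lay below the 0.774 RPKM of HFD library 15. With the GCGR antibody the Cav2 difference was -0.48 ± 0.10 (limma adjusted p = 6.70e-04), where 16.6% of all tested genes were called lower. All 6 HFD libraries lay below all 6 chow libraries, as they did for 5.1% of tested genes. Lower values on HFD were thus common in the table.

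Cav1 did not pass the same tests. Under control antibody its log2 difference was -0.50 ± 0.41 (limma adjusted p = 0.377), and the groups overlapped only between chow library 3 at 1.27 RPKM and HFD library 13 at 1.32 RPKM. That SE came from the spread of all 4 groups. With limma fitted to these 2 groups alone, the adjusted p was 0.00776 (range over 30 alternatives 0.00776 to 0.506), and an exact permutation test of the 2 groups, two-sided, gave p = 0.00866, where 0.00216 is the smallest p it allows. Under GCGR antibody the difference was -0.96 ± 0.40 (limma adjusted p = 0.0702). With limma fitted to these 2 groups alone the adjusted p was 0.178, and the exact permutation test, two-sided, gave p = 0.1255, so neither passed. The limma difference passed with an adjusted p of 0.0185 without library 21 and of 0.00373 without library 23. The adjusted p ranged up to 0.496 without libraries 19 and 20, where the difference was -0.34.

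The balance between the caveolins was read from the ratio of their values. Its antibody differences are a description, since they are built from the contrasts that chose the genes. The ratio of Cav1 to Cav2 RPKM had a median of 1.90 in chow controls (range 1.15 to 2.31) and of 5.03 with GCGR antibody on chow (3.90 to 6.05), so the groups did not overlap. In HFD controls its median was 1.30 (1.12 to 2.64). With GCGR antibody on HFD the median was 3.31 and single libraries ran from 0.740 in library 20 to 21.8 in library 23. Cav1 was therefore the lower of the pair in 1 library, number 20. Between diets, the mean log2 ratio differed by -0.18 under control antibody (exact permutation test, two-sided, p = 0.509, adjusted over both tests 0.587) and by -0.45 under GCGR antibody (exact permutation test, p = 0.587), and neither passed.

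Within groups, no relation between Cav1 and Cav2 passed its test after adjustment. Deviations from the group mean on the log2 scale had Pearson's r of 0.03 (permutation p = 0.909) and Spearman's rho of 0.21 (permutation p = 0.390) over the 23 libraries, and r was 0.17 without libraries 21 and 23, the farthest from the median in Cav1. Among the 6 chow libraries with GCGR antibody r was 0.86 (exact p = 0.0333, adjusted over 4 relations 0.133) and rho 0.94 (exact p = 0.0167, adjusted 0.0667). In the 6 HFD libraries with that antibody r was -0.32 (exact p = 0.461), and in the 6 HFD controls 0.15 (exact p = 0.767). Without libraries 19 and 20 the value over the remaining libraries was 0.41 (permutation p = 0.0507).

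**Figure D2:**
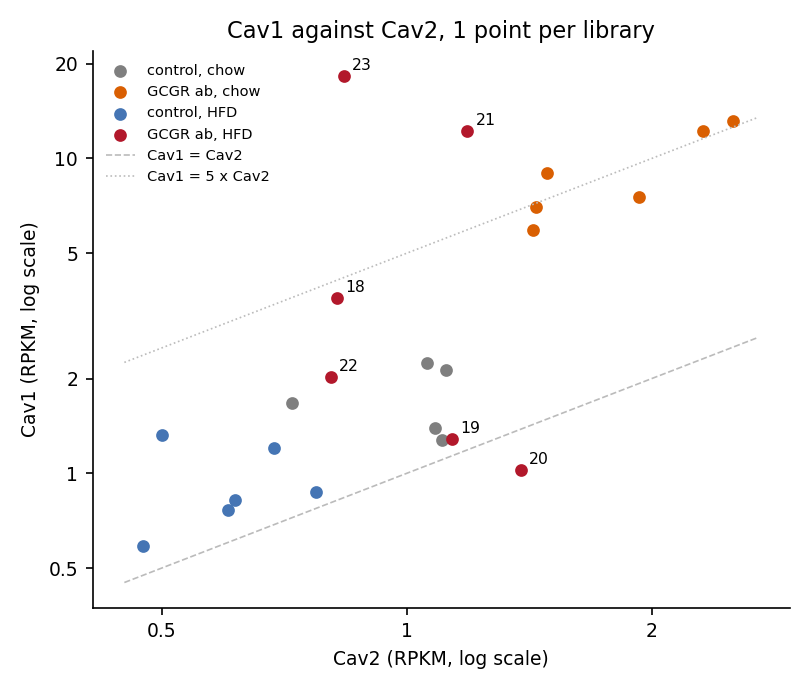
Cav1 against Cav2 in RPKM, both axes logarithmic, 1 point per library coloured by group (ab, antibody); the dashed line marks equal levels and the dotted line a Cav1 level of 5 times Cav2. The treated chow libraries lie along the dotted line, whereas the numbered HFD libraries with GCGR antibody run from a ratio of 0.740 in library 20 to 21.8 in library 23.

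None of the other genes that shape caveolae passed the test with the antibody. Of 12 genes of the caveolar coat and neck, 9 passed the filter, and limma called 0 of 9 in either antibody comparison, and 0 had an unadjusted p under 0.05. The background was 0.394% of all tested genes called higher and 0.553% lower on chow, and 5.33% higher and 2.12% lower on HFD. At such shares, 0 of 9 does not set the coat genes apart from other tested genes. The median log2 difference of the 9 genes was 0.08 on chow and 0.04 on HFD, close to the medians over all genes of 0.03 and 0.05. Cav3, the caveolin of muscle, Murc (cavin-4), the muscle cavin, and Pacsin1 stayed below the filter, with mean levels of at most 0.0585 RPKM in any group.

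Among the cavins, Ptrf (cavin-1), the coat protein that caveolae need, had means of 2.25 ± 0.294 RPKM in chow controls (SD, n = 5) and 2.75 ± 0.402 RPKM with GCGR antibody on chow (SD, n = 6). Its log2 difference was 0.20 ± 0.12 on chow (limma adjusted p = 0.583) and 0.20 ± 0.11 on HFD (limma adjusted p = 0.284). Ptrf was thus the more abundant of Ptrf and Cav1 in chow controls and the less abundant in treated chow livers. Sdpr (cavin-2), which shapes the membrane curve, differed by 0.15 ± 0.10 on chow and 0.11 ± 0.10 on HFD. Prkcdbp (cavin-3), which links caveolae to the cytoskeleton, differed by 0.05 ± 0.10 and 0.03 ± 0.10. The ATPases of the Ehd family on this list gave -0.03 (Ehd1), 0.16 (Ehd2), 0.12 (Ehd3) and 0.08 (Ehd4) on chow. The membrane-bending Pacsin2 and Pacsin3 gave -0.04 and -0.01 on chow, and Pacsin3 gave -0.13 ± 0.07 on HFD (limma adjusted p = 0.284).

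**Figure D3:**
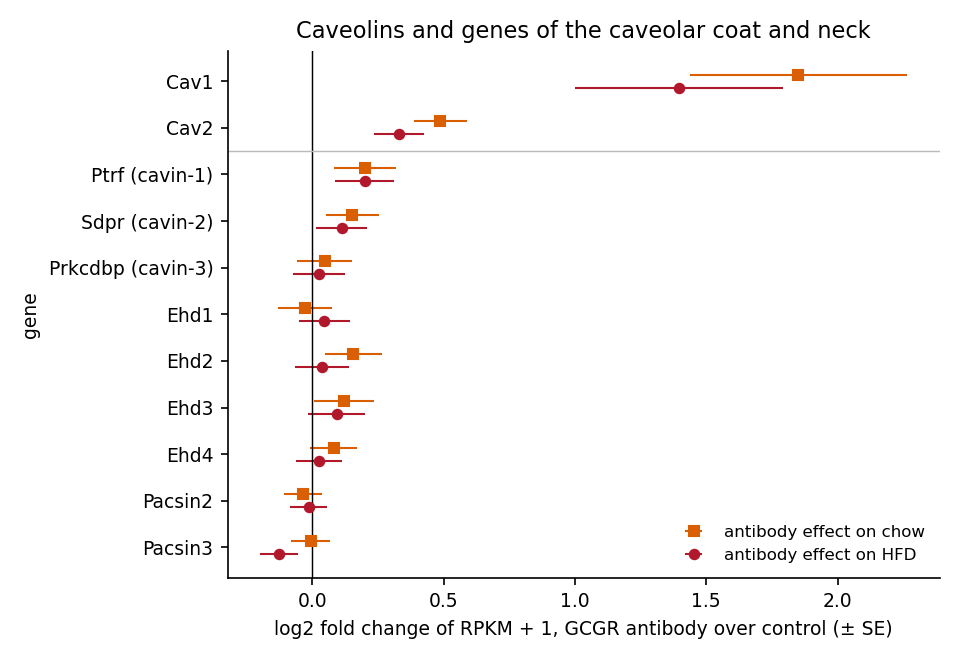
Log2 fold change of RPKM + 1, GCGR antibody over control antibody, with bars of ± 1 SE, for Cav1 and Cav2 (above the grey line) and the 9 tested genes of the caveolar coat and neck, on chow (squares) and HFD (circles). Cav1 lies at 1.85 and 1.40 and Cav2 at 0.49 and 0.33, and the highest coat gene, Ptrf, lies at 0.20. The caveolins, unlike the coat genes, were chosen by these differences.

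With diet the coat genes that passed the test were higher on HFD, whereas Cav2 was lower. Under control antibody Ehd4 rose on HFD from 1.64 ± 0.295 to 2.32 ± 0.356 RPKM (log2 difference 0.34 ± 0.09, limma adjusted p = 0.00829), and Pacsin2 rose from 14.3 ± 0.842 to 16.6 ± 1.25 RPKM (0.21 ± 0.07, limma adjusted p = 0.0359). The remaining 7 did not pass, where 11.6% of all tested genes were called higher. Pacsin2 lost its call without any 1 of libraries 1, 2, 3, 4, 14 and 17 and with libraries scaled to an equal sum (adjusted p between 0.00354 and 0.208 over 29 alternatives). Under GCGR antibody, where 13.2% of tested genes were called higher, Ehd1 (0.28 ± 0.10, limma adjusted p = 0.0307), Ehd4 (0.28 ± 0.09, limma adjusted p = 0.0178) and Pacsin2 (0.23 ± 0.07, limma adjusted p = 0.0172) rose on HFD. None of the 9 was called lower in either diet contrast. Ehd3, listed as a relative of the other Ehd ATPases, differed by -0.24 ± 0.11 under control antibody (limma adjusted p = 0.108) and by -0.27 ± 0.11 under GCGR antibody (limma adjusted p = 0.0611).

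Related membrane systems were read from lists chosen for this purpose. None of 6 flotillin, stomatin and erlin genes, scaffolds of other membrane rafts, was called by limma in either antibody comparison, with 0 on chow and 2 on HFD at an unadjusted p under 0.05. On HFD with median-ratio scaling, Stom (-0.32, limma adjusted p = 0.0154) and Erlin1 (-0.31, limma adjusted p = 0.0176) were called lower. Stom was also called without library 13, 19 or 20 and without 19 and 20 together (-0.38, limma adjusted p = 0.00884), and Erlin1 without library 4, 7, 11 or 22. Of 12 clathrin pathway genes 10 were tested and 0 were called, with 1 and 3 at an unadjusted p under 0.05. On HFD Dnm2 was called higher without library 19 and Picalm without library 19 or 23. Of 19 receptors and enzymes reported in caveolae 17 were tested, and on chow limma called 0 (1 at an unadjusted p under 0.05). On HFD 2 of the 17 rose with the antibody and 0 fell, where 5.33% of all tested genes were called higher. Scarb1, the receptor that takes up cholesterol from high-density lipoprotein, rose from 49.2 ± 5.83 to 73.3 ± 12.1 RPKM (log2 difference 0.56 ± 0.10, limma adjusted p = 7.82e-04). Tgfbr2, a receptor of transforming growth factor beta, rose from 4.35 ± 1.25 to 6.96 ± 1.27 RPKM (0.59 ± 0.14, limma adjusted p = 0.0115). On chow the differences were 0.14 ± 0.10 for Scarb1 and 0.02 ± 0.15 for Tgfbr2. The difference between diets did not pass for either (limma adjusted p = 0.286 and 0.328). Without libraries 19 and 20 the HFD differences were 0.50 for Scarb1 and 0.50 for Tgfbr2, both still called, and Egfr was also called higher (0.69, limma adjusted p = 0.0381), against 0.13 ± 0.30 with them (limma adjusted p = 0.826). Bmpr2 and Fyn were called higher without library 19, Fyn also without library 7, and Ednrb without library 13 or 23.

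Around the pair on chromosome 6, none of the nearest protein-coding genes passed the test on chow. Of the 5 on each side, 8 passed the filter, Ppp1r3a and Asz1 being below it, and limma called 0 of 8 on chow (1 at an unadjusted p under 0.05). There 0.394% of all tested genes were called higher and 0.553% lower. On HFD 1 of the 8 was called, where 5.33% of all tested genes were called higher. These counts do not set the neighbours apart from other tested genes. Met, the receptor of hepatocyte growth factor, starts 122 kb past the end of Cav1 and rose with the antibody from 12.6 ± 1.54 to 16.1 ± 2.42 RPKM (log2 difference 0.32 ± 0.10, limma adjusted p = 0.0389). That call held in 18 of 29 alternatives and was lost with median-ratio or equal-sum scaling and without any 1 of libraries 12, 14, 15, 18, 21, 22 and 23 (adjusted p up to 0.110). On chow Met differed by -0.02 ± 0.10, and the difference between diets did not pass (limma adjusted p = 0.415). Tes, the nearest gene on the other side, 175 kb before Cav2 and encoding the focal adhesion protein testin, had a log2 difference of 0.29 ± 0.12 on chow (limma adjusted p = 0.391) and 0.20 ± 0.12 on HFD (limma adjusted p = 0.312). The log2 differences of the other 6 on chow were 0.09 (Foxp2), 0.07 (Mdfic), 0.13 (Tfec), 0.04 (Capza2), 0.00 (St7) and 0.04 (Wnt2).

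Tes fell on HFD under control antibody from 0.724 ± 0.302 to 0.296 ± 0.142 RPKM (log2 difference -0.40 ± 0.12, limma adjusted p = 0.0172), 1 of the 8 neighbours called in a contrast where 18.3% of all tested genes were called lower. The adjusted p was 0.0645 without library 3. Under GCGR antibody it also fell (-0.50 ± 0.12, limma adjusted p = 0.00301).

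**Figure D4:**
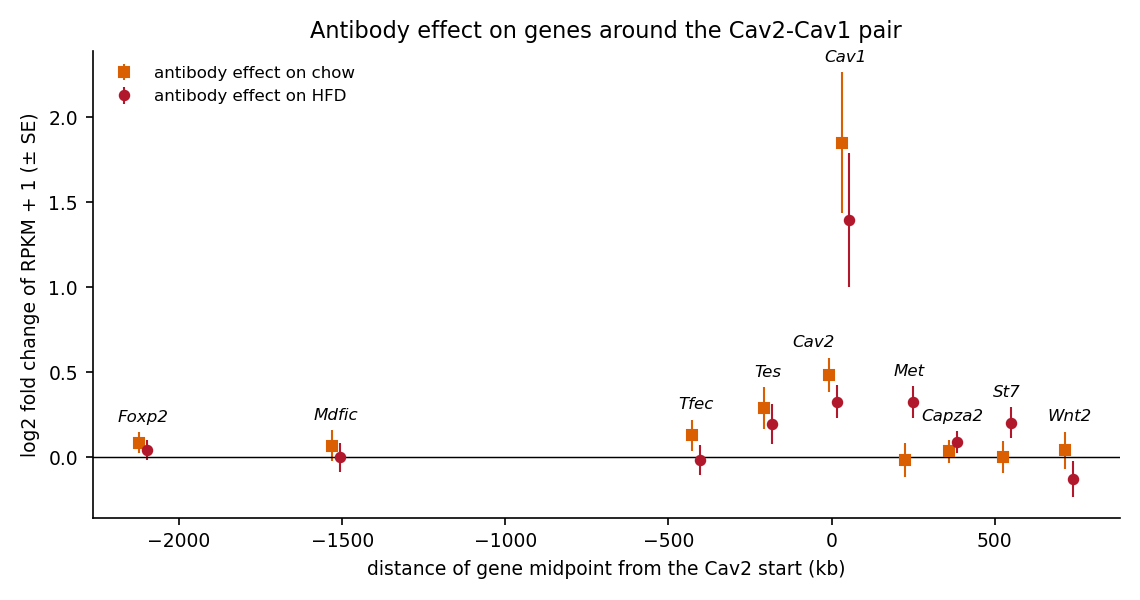
Log2 fold change of RPKM + 1, GCGR antibody over control antibody, with bars of ± 1 SE, for Cav2, Cav1 and the 8 tested neighbouring genes, placed by the distance of each gene's midpoint from the Cav2 start in kb; squares (chow) and circles (HFD) are drawn slightly apart. Cav1 and Cav2 stand above their neighbours on chow, which is favoured by their choice from these contrasts and is no separate result. On HFD Met lies at 0.32 beside 0.33 for Cav2.

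The genes whose values were most like those of Cav1 differed from those most like Cav2. Likeness was Pearson's r of log2(RPKM + 1) over the 23 libraries, which share the same group differences, and it is a description. For Cav1 the highest values were Mup4 (0.87), Mup3 (0.85), Nrp1 (0.85), Mup15 (0.82) and Mup5 (0.81). The Mup genes encode major urinary proteins that hepatocytes secrete, and their near-identical sequences make their single values uncertain. Nrp1 encodes neuropilin-1, a co-receptor of vascular growth factors and semaphorins. Cav2 had an r of 0.68 with Cav1, and 103 genes were more like Cav1 than Cav2 was. For Cav2 the highest were Slc17a5 (0.92) and Idua (0.90), which serve lysosomes, Slc30a7 (0.88), a zinc transporter, Tbl3 (0.88) and Bri3bp (0.86), and 740 genes were more like Cav2 than Cav1 was.

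With the group means removed, the genes most like Cav1 were Cadm4 (0.87), Selenbp2 (0.85), Urad (0.83), Egfr (0.83) and Nudt7 (0.82). They encode a cell adhesion molecule, a selenium-binding protein, an enzyme of urate breakdown, the epidermal growth factor receptor and a peroxisomal hydrolase of coenzyme A. Selenbp2 has a close copy, so its value is uncertain. Over the 6 HFD libraries with GCGR antibody r ran from 0.88 for Egfr to 0.99 for Selenbp2, against -0.01 for Selenbp2 to 0.52 for Egfr over the other 17. The genes were picked by r over all 23 libraries, and Cav1 spread most in those 6 (SD 1.36). A high r there was thus favoured by the choice and is no separate result. Selenbp2 was at 586 and 717 RPKM in libraries 21 and 23 and at 40.0 and 43.1 RPKM in libraries 19 and 20. Selenbp2 lay at 345 to 1212 RPKM over all chow libraries and at 11.5 to 37.5 RPKM in HFD controls, so libraries 21 and 23 fell within the chow range of this gene. Cadm4 was at 2.19 and 3.26 RPKM in the first pair and at 0.356 and 0.334 RPKM in the second, all below its chow range of 3.96 to 6.28 RPKM, and HFD controls held 0.55 to 1.61 RPKM. Egfr in libraries 21 and 23, at 79.0 and 67.5 RPKM, lay above the HFD controls (20.98 to 43.8 RPKM) and below the chow libraries (89.4 to 150 RPKM). Libraries 21 and 23, with the most Cav1 in that group, also held the most of these 5 genes, which the way of picking them favours. Only Egfr was higher in library 21 than in library 23.

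For Cav2 the genes with the most similar deviations were Syk (0.77), Il2rb (0.76), Kank3 (0.75), Nek2 (0.74) and Col4a2 (0.74). Syk is a kinase of immune receptors, Il2rb a receptor chain for interleukins 2 and 15, Nek2 a mitotic kinase and Col4a2 a collagen of basement membranes. Their r lay between 0.63 and 0.88 over the 6 HFD libraries with GCGR antibody and between 0.69 and 0.79 over the other 17. These genes too were picked by r over all 23 libraries. Cav1 and Cav2 themselves had an r of -0.32 over those 6 libraries and of 0.62 over the other 17.

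**Figure D5:**
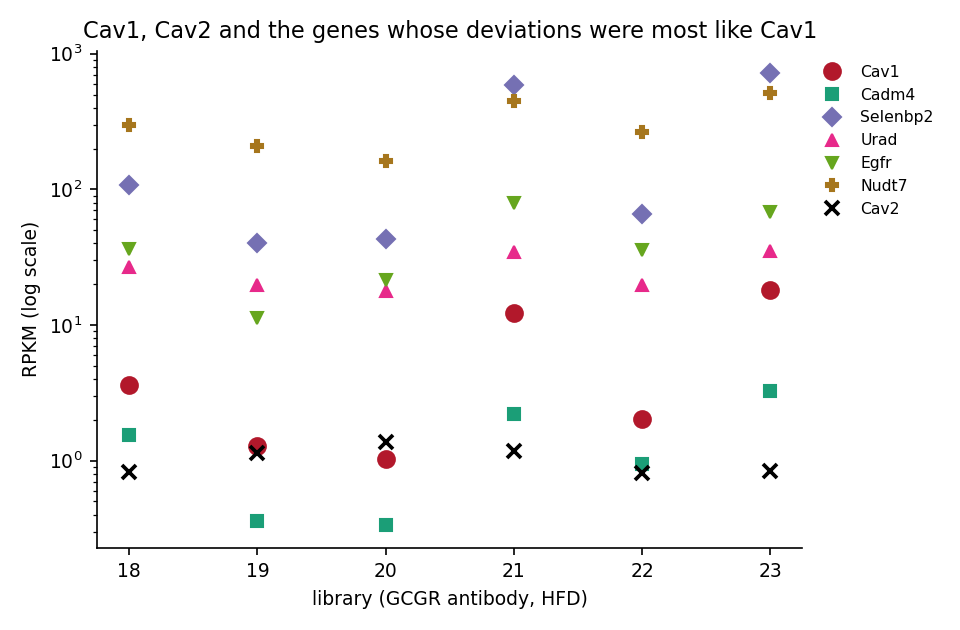
RPKM on a log axis of Cav1, Cav2 (crosses) and the 5 genes whose within-group deviations were most like those of Cav1 (predicted genes passed over), in the 6 HFD libraries with GCGR antibody. Selenbp2 is at 586 and 717 RPKM in libraries 21 and 23, where Cav1 is at 12.2 and 18.3 RPKM, and Cav2 is at 1.19 and 0.837 RPKM there.

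Markers of the other cell types a liver piece can hold were read beside the caveolins, and their part in the caveolin differences was not tested. In such tissue RNA, more cells of a type and more RNA per cell cannot be told apart. Endothelial markers, from the cells richest in caveolae, summed to 108 to 152 RPKM in chow controls and 123 to 167 RPKM with GCGR antibody on chow. On HFD the sums were 119 to 170 RPKM and 126 to 196 RPKM. Of 28 markers 27 were tested, and limma called 0 on chow (3 at an unadjusted p under 0.05), with a median log2 difference of 0.16. On HFD Lyve1, a sinusoidal and lymphatic endothelial receptor, was called (0.61 ± 0.19, limma adjusted p = 0.04998), a call kept in 5 of 29 alternatives (adjusted p 0.0196 to 0.193) and at 0.29 without libraries 19 and 20. There 5.33% of all tested genes were called higher, so 1 call of 27 does not set the endothelial markers apart. Pecam1, a marker of all endothelium, differed by 0.18 ± 0.11 on chow and 0.06 ± 0.11 on HFD, Cdh5, the endothelial cadherin, by 0.20 ± 0.14 and 0.09 ± 0.14, and Stab2, a sinusoidal scavenger receptor, by 0.13 ± 0.14 and 0.41 ± 0.13 (limma adjusted p on HFD 0.0597, called without library 2, 17 or 19).

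Markers of stellate cells, fibroblasts and smooth muscle summed to 147 to 156 RPKM in chow controls and 159 to 179 RPKM with GCGR antibody on chow, without overlap. No background is given for such sums, so the lack of overlap is a description only. Limma called 0 of these 19 markers on chow (1 at an unadjusted p under 0.05). On HFD the sums were 166 to 250 RPKM and 147 to 286 RPKM. There Lum (0.58 ± 0.15, limma adjusted p = 0.0170) and Thy1 (0.32 ± 0.09, limma adjusted p = 0.0403) rose with the GCGR antibody and Hhip fell (-0.37 ± 0.08, limma adjusted p = 0.00365). These were the calls among 19 tested markers, where 5.33% of all tested genes were called higher and 2.12% lower. Without libraries 19 and 20 the differences were 0.39 for Lum and 0.27 for Thy1 (limma adjusted p = 0.0835 and 0.112), and Rgs5 was called lower (-0.65, limma adjusted p = 0.0283). Col1a1, Col1a2, Col3a1 and Dcn were called higher without library 23, Col1a2 also without library 17, Rgs5 lower without library 20 and Ecm1 lower with median-ratio scaling or without library 19.

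Adipocyte markers, from another cell type rich in caveolae, summed to 12.5 to 16.99 RPKM in chow controls and 18.1 to 50.1 RPKM with GCGR antibody on chow, without overlap. This too is a description only, as no background is given for such sums. In library 9, which had the sum of 50.1 RPKM, Cfd alone was at 32.3 RPKM. Limma called 0 of the 4 tested on chow (2 at an unadjusted p under 0.05), and Cfd, which encodes adipsin, had means of 1.43 ± 0.707 and 12.6 ± 10.7 RPKM (log2 difference 2.16 ± 0.57, limma adjusted p = 0.0751, and called at a pseudocount of 0.1 or without library 6 or 13). Adipoq, which encodes adiponectin and defines fat cells, was at 0 to 0.344 RPKM in chow controls and 0 to 0.642 RPKM in treated chow libraries. It was listed at 0 in all 6 HFD controls and reached at most 0.104 RPKM with GCGR antibody on HFD. On HFD the adipocyte sums were 25.03 to 130 RPKM and 25.2 to 63.5 RPKM, and the median log2 difference of the 4 tested markers was -0.21. Of these 4, only Adrb3, a beta-adrenergic receptor, was called, and it rose with the GCGR antibody (0.67 ± 0.12, limma adjusted p = 0.00120). In that contrast 5.33% of all tested genes were called higher. Fabp4, a fatty acid carrier, differed by -0.43 ± 0.28 (limma adjusted p = 0.359), Cfd by 0.01 ± 0.54 and Cidea, a lipid droplet protein, by -1.48 ± 0.60 (limma adjusted p = 0.133). Cidea was called lower without library 13 (-1.92, limma adjusted p = 0.0403) or library 16 (-1.93, limma adjusted p = 0.0460).

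Bile duct markers summed to 16.3 to 23.5 RPKM in chow controls and 23.01 to 49.7 RPKM with GCGR antibody on chow, mostly from Spp1 (11.3 ± 2.50 and 26.4 ± 10.8 RPKM), and limma called 0 of 4 on either diet (2 on chow and 0 on HFD at an unadjusted p under 0.05). The ductal keratin Krt19 differed by 0.16 ± 0.10 on chow and -0.14 ± 0.09 on HFD. Mesothelial markers, which could enter with the liver capsule, stayed at 0.824 to 4.58 RPKM in sum, Msln differed by 0.07 ± 0.15 and -0.06 ± 0.14, and limma called 0 of 3 on either diet (0 at an unadjusted p under 0.05). Macrophage markers gave 0 calls of 11 on either diet (1 on each at an unadjusted p under 0.05), apart from Ccr2, called higher on HFD without library 17 or 23, and their sums ran from 66.7 to 133 RPKM in chow controls and 116 to 156 RPKM in treated chow libraries.

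On HFD the lymphocyte markers Cd3g (0.37 ± 0.10, limma adjusted p = 0.0232), Il2rb (0.39 ± 0.11, limma adjusted p = 0.0293) and Ccl5 (1.15 ± 0.27, limma adjusted p = 0.0111) rose with the GCGR antibody, and their list summed to 4.47 to 6.25 RPKM in controls and 5.58 to 21.4 RPKM in treated libraries. With limma fitted to the 2 groups alone, Cd3g, Il2rb and Ccl5 all lost their call (adjusted p = 0.0853, 0.0814 and 0.0641). The Il2rb call was kept in 21 of 29 alternatives. Without libraries 19 and 20 the difference was 0.72 for Ccl5, still called (limma adjusted p = 0.0371), and 0.31 for Il2rb (limma adjusted p = 0.0769), and Cd4 was called higher (0.49, limma adjusted p = 0.0156). Il2rb is also among the genes whose within-group deviations were most like those of Cav2. Of 6 lymphocyte markers tested on chow limma called 0 (0 at an unadjusted p under 0.05). Among 7 tested red blood cell markers Alas2, the first enzyme of heme synthesis in red cells, fell with the GCGR antibody on HFD (-0.73 ± 0.10, limma adjusted p = 8.31e-05). Among 10 hepatocyte markers Cyp2e1, a cytochrome P450, rose in the same contrast (0.56 ± 0.11, limma adjusted p = 0.00298), and Alb, which encodes albumin, fell (-0.37 ± 0.09, limma adjusted p = 0.0137). Without libraries 19 and 20, Ttr (-0.33, limma adjusted p = 0.00825) and Tat (-0.84, limma adjusted p = 0.00841) were also called lower. Over all fixed lists together 131 genes were tested, with 0 calls by limma in either direction on chow (13 at an unadjusted p under 0.05) and 10 higher and 3 lower on HFD (40 at an unadjusted p under 0.05). Over all tested genes 5.33% were called higher and 2.12% lower on HFD, so the pooled counts of calls lay near the background. The calls were uneven between lists, with 3 of 6 lymphocyte markers called higher. No share over all tested genes is given for an unadjusted p under 0.05, so those counts have no background to be read against.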

How the data were processed

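Liver RNA of 23 libraries in 4 groups of diet and antibody was grouped by the sample titles. Per the labels' protocols, strand-specific KAPA mRNA-Seq libraries were sequenced as single reads on an Illumina HiSeq, and the submitters' processing notes name bcl2fastq 2.17, FastQC and the build GRCm38. Not given in the sources used here are the aligner, counting tool, strand setting and annotation. The authors deposited RPKM values for 24475 genes, and all 23 columns were matched by name. Count models do not suit this unit and were not fitted. Genes reaching 0.5 RPKM in 5 or more libraries, 11939 in all, were tested on log2(RPKM + 1) by limma 3.58.1 under R 4.3.3 (4 group means, mean-variance trend, two-sided). P-values were Benjamini-Hochberg adjusted over these genes, with a threshold of 0.05. Reads behind a value were estimated from the steps of low values: 199 genes with 1 transcript gave a typical depth of 16200000 reads, and 75.9% of them lay within 5% of it. Of 23 values, 18 for Cav1 and 20 for Cav2 lay within 0.2 reads of a whole number. Positions and promoters came from RefSeq tables of GRCm38.p6.

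The caveolins and the gene lists were chosen with earlier results of these data known. Named genes are the caveolins, the tested coat genes, the 5 protein-coding neighbours on each side, called members of the other lists (at most 4 a list), Pecam1, Cdh5, Stab2, Adipoq, Msln and Krt19, and the 5 genes most like each caveolin, predicted genes passed over. Cfd, Fabp4, Cidea, Spp1, genes called only under an alternative, and the libraries named singly, were singled out after their values were seen. Alternatives were another pseudocount, no filter, 2 scalings, fits of 2 groups alone, exact permutation tests and leaving out each library.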

Additional observations from a re-analysis of the deposited data

Results flagged for a closer look

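In groups of 5 or 6 libraries, 6 values lay far from the rest of their group by Dixon's criterion, among 44 groups examined (11 genes in 4 groups), and chance alone marks about 1 group in 20. Cav2 in chow control library 2 was at 0.723 RPKM, the lowest of its group and the value through which the chow and HFD controls overlapped. In HFD control library 17, Ptrf (cavin-1) at 3.61 RPKM and Sdpr (cavin-2) at 3.03 RPKM were both the highest of their group. Prkcdbp (cavin-3) in chow control library 4 was at 0.886 RPKM. Pacsin2 was at 19.1 RPKM in HFD control library 14 and at 12.8 RPKM in library 23 of GCGR antibody on HFD, the library with the most Cav1.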

How the results depend on the processing

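Both caveolins kept the direction of their antibody and diet differences under every alternative run, while sizes of these low genes depended on the pseudocount. At a pseudocount of 0.1 the antibody differences on the log2 scale were 2.30 for Cav1 and 0.78 for Cav2 on chow and 0.66 for Cav2 on HFD, and the correlation of deviations was -0.028. The difference of antibody effects between diets for Cav1 turned to 0.16 without libraries 19 and 20, chosen after seeing the data. The Cav1 diet difference under control antibody, -0.50, passed with the 2 groups alone and by the exact permutation test. Under GCGR antibody the Cav1 diet difference passed in neither of these and ran from -1.35 to -0.70 when 1 library was left out. The diet difference of the log2 ratio under GCGR antibody ran from -0.968 to 0.0083 (above 0 without library 20), and the correlation of deviations from -0.0668 to 0.223 (below 0 without library 6, 7, 9, 10, 21 or 22).

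Of the fixed lists on chow, 1 gene (Cfd) was called higher at a pseudocount of 0.1, and 0 to 1 with 1 library left out. Called lower were 1 with median-ratio scaling (Cps1), 2 with the 2 groups alone and without libraries 19 and 20 (Cps1 and Tat), and 0 to 1 with 1 library left out. On HFD 5 were called higher with the 2 groups alone and 6 to 16 with 1 library left out (the count moved beyond 1.5 times without library 14 or 23). Called lower were 7 with median-ratio scaling and without libraries 19 and 20, and 3 to 8 with 1 library left out (beyond 1.5 times without library 7, 13, 19 or 20). The difference of antibody effects ran from -0.84 to -0.19 for Cav1 and from -0.21 to -0.10 for Cav2 with 1 library left out. Among the locus neighbours, 0 were called higher on HFD without a filter, with either scaling and with the 2 groups alone, and 0 to 1 with 1 library left out. In the diet contrast under control antibody 2 neighbours were called lower with the 2 groups alone (Tes and Capza2) and 0 to 1 with 1 library left out, and the coat genes called higher were 4 with median-ratio scaling, 1 with an equal sum and 1 to 2 with 1 library left out. The cause of these changes was not tested. No paired analysis was possible because the sample numbers run from 1 to 23 and no number is shared between groups. Estimated reads of 21 to 112 per library limit the precision of Cav2.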
